A study of Homo sapiens with 14 samples.

Results

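The 8 ETS family genes ETV6, ETS1, FLI1, ELF1, ERG, ETS2, ELF2 and GABPA were followed through 14 peak lists from Jurkat cells, an established human T cell leukaemia line. Each gene was taken as its annotated body (GRCh38, RefSeq) extended by 50 kb on each side, and every peak overlapping such a window was used. The members are 8 of 19974 protein-coding genes; their windows span 1902.16 kb and held 0.290% of the 273342 kept peaks. The peaks come from CUT&Tag, in which a transposase tethered to an antibody tags the DNA around a bound protein or histone mark. CTCF and H3K27ac (acetylated lysine 27 of histone H3) were mapped in cells with a lentiviral shRNA against SATB1 (shSATB1; 3 CTCF and 2 H3K27ac libraries) and in cells with a control shRNA (shCtrl; 3 and 2 libraries). SATB1 was mapped in shCtrl cells (2 libraries), and Matrin 3 in Jurkat cells whose labels name no shRNA (2 libraries). No SATB1 list from shSATB1 cells was analysed here, so these peak lists hold no check of the knockdown.

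ETS proteins share a winged-helix DNA-binding domain that reads a GGAA core, so family members can compete for the same sites and differ mainly in partners and tissue. In T cells, ETS1 and its partner RUNX1 drive genes of the T cell receptor and early T cell programme, FLI1 and ERG act in blood stem cells and megakaryocytes, and ETV6 is a repressor required for adult blood stem cells and a frequent fusion partner in leukaemia. SATB1 is a chromatin organiser abundant in thymocytes, CTCF marks insulators and loop anchors, H3K27ac marks active promoters and enhancers, and Matrin 3 is a nuclear matrix protein.

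The lists held 14695, 17904 and 20284 CTCF peaks in shSATB1 and 31270, 31141 and 32540 in shCtrl. They held 17925 and 15972 H3K27ac peaks in shSATB1 and 17863 and 17141 in shCtrl, 15210 and 14726 SATB1 peaks, and 24566 and 2105 Matrin 3 peaks. The number of reads behind each list is unknown. The 2 SATB1 lists shared 40.8% of their exact peak starts, against at most 1.03% in the other 90 pairs of lists, so they are counted here as 1 sample. H3K27ac lay at an annotated end of 8 of 8 T lineage marker genes in both shCtrl libraries, of 1 of 6 B lineage markers (CD79A), 0 of 6 myeloid, 1 of 5 erythroid and megakaryocyte markers (EPOR) and 0 of 4 fibroblast and epithelial markers. In pooled cells, fewer cells carrying a mark and less of it per cell cannot be told apart.

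SATB1 sat at the promoter of some members and not of others, and the annotated promoters below were chosen to show both. Each is RefSeq sequence (GRCh38.p14) of 250 bases before and 50 bases after a transcript start, read 5′ to 3′ along the gene. Capitals mark the ETS words CCGGAAG and CAGGAAG on either strand. The GABPA (chr21:25734722-25735021, + strand), ETV6 (chr12:11649424-11649723, + strand), ELF1 (chr13:41061337-41061636, - strand) and ELF2 (chr4:139084175-139084474, - strand) promoters each lay under a peak in both SATB1 lists, and the ERG promoter (chr21:38660618-38660917, - strand) under no peak in any of the 14 lists.
GABPA: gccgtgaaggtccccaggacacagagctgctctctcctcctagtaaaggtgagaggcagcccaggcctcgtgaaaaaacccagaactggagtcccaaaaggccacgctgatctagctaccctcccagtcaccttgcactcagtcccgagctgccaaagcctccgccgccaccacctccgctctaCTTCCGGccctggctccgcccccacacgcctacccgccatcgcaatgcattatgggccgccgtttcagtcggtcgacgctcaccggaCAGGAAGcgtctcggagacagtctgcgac
ETV6: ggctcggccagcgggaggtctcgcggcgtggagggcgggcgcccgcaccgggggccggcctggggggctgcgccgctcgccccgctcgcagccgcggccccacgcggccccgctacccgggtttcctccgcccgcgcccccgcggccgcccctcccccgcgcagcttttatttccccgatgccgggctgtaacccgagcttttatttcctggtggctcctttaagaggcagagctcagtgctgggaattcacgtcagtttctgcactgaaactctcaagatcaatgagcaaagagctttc
ELF1: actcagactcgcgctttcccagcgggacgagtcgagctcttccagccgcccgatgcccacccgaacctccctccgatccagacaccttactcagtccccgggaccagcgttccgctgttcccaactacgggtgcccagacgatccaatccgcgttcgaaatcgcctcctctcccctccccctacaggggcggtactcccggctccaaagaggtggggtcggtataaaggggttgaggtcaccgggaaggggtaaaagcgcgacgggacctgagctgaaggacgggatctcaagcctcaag
ELF2: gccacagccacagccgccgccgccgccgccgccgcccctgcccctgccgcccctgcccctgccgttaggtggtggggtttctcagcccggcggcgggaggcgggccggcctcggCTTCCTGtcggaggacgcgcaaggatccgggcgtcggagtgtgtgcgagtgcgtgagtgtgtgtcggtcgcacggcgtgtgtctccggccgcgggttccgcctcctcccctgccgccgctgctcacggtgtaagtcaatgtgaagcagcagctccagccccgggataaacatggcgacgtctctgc
ERG: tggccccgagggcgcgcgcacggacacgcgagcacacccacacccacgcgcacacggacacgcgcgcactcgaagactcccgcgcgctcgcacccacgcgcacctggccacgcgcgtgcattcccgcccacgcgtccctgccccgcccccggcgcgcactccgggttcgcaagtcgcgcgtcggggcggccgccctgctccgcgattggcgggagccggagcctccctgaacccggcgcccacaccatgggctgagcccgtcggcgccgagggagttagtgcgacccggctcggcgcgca

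The promoter table gave 13 promoters for 6 of the 8 members. CCGGAAG was found in 1 of the 13, that of GABPA at position 185, and in 10.3% of all 35116 promoters. CAGGAAG was found in 5 of 13 and in 12.7% of all promoters. The ERG promoters chr21:38498455-38498754 and chr21:38498428-38498727 overlap and share a single copy, so the 5 are not separate sites. Of those 5, the GABPA and ELF2 copies are printed above. The promoters printed for GABPA, ELF1 and ELF2 also lay under a CTCF peak in 3 of 3 shSATB1 and 3 of 3 shCtrl libraries. The other ELF2 promoter, at the upper end of the gene (chr4:139177169-139177468), lay under no SATB1 peak. It lay under a CTCF peak in 2 of 3 shSATB1 and 3 of 3 shCtrl libraries. The ETV6 promoter lay under a CTCF peak in 1 of 3 shSATB1 and 3 of 3 shCtrl libraries. The 4 ERG promoters of the table lay under no peak in any list.

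At annotated gene ends (within 2 kb of either end, since the gene table gives no strand), SATB1 was called in both lists at 5 of 8 members (ETV6, ETS2, ELF1, ELF2 and GABPA), against 24.5% of all protein-coding genes. The same 5 genes carried H3K27ac at an end in both shSATB1 and both shCtrl libraries, against 36.9% and 38.8% of all genes, and Matrin 3 in the longer of its lists, against 49.3% of all genes. ETS1, FLI1 and ERG carried no SATB1, H3K27ac or Matrin 3 peak within 2 kb of either end. CTCF was at an end in all 3 shSATB1 libraries at 4 of 8 members (37.9% of all genes), and in all 3 shCtrl libraries at 5 of 8 (58% of all genes); ELF2 made the difference, with CTCF at its upper end in 2 of 3 shSATB1 libraries. A site is called lost below where every shCtrl and no shSATB1 library had it, and gained in the reverse case. By that rule, no member had an end that lost or gained either mark; of all genes, 8.58% lost CTCF, 0% gained it, 0.846% lost H3K27ac and 0.501% gained it. Among the other 20 ETS genes, SATB1 was at an end of ETV2, ELK1 and ELK4, and CTCF was lost at an end of ETV4, ELF5 and SPI1 (PU.1, a myeloid and B cell factor). Of 4 partner genes, RUNX1, which binds DNA beside ETS1, and GABPB2, a subunit that pairs with GABPA, had SATB1 at an end; GABPB1 and CBFB did not, and all 4 carried H3K27ac at an end in both arms.

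By count, more SATB1 regions lay inside the members than at their ends. The ends are far shorter stretches, and these counts are not scaled by length. Regions counted as inside can also cover promoters away from the outer ends, such as the ELF2 promoter printed above. Joining the 2 lists gave 62 SATB1 regions called in both within the windows, of 13072 in the genome; 42 lay inside a member, 7 at an end and 13 in the flanks. ETV6 held 21 of them, and only 5 of 19974 gene windows held more. ETS1 and FLI1 held 10 each (49 windows held more), ELF1 9, ERG 4, ETS2 3, ELF2 3 and GABPA 2. Per 100 kb, ETV6 had 6.07 regions, FLI1 4.38, ETS1 4.37 and ELF1 3.92, and the other 4 members between 1.01 (ERG) and 2.50 (ETS2). The median window had 0.611, and 42.7% of windows had none. The member regions had a median width of 1782 bp, against 1364 bp over all SATB1 regions.

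**Figure D1:**
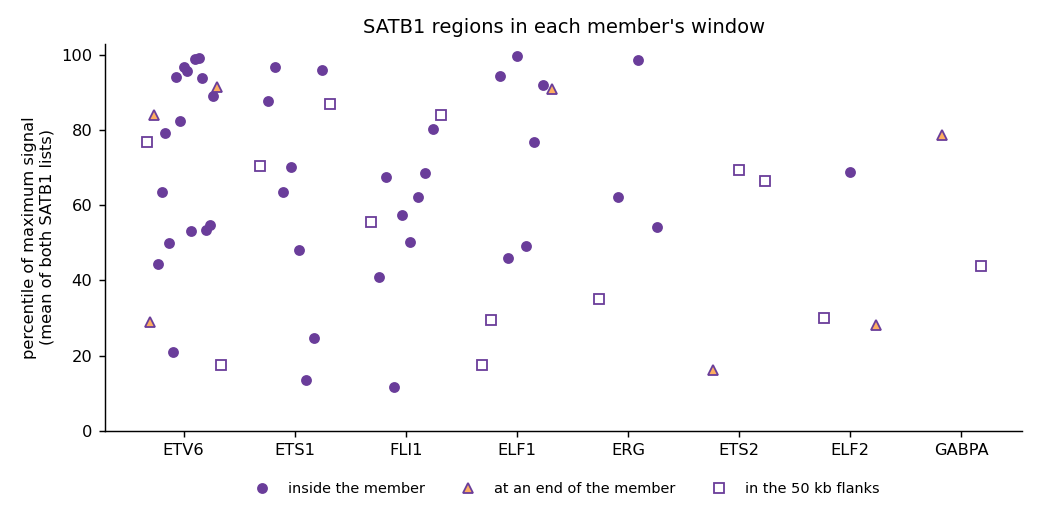
SATB1 regions called in both lists, by member (x axis, regions ordered by position within each member). The y axis gives the mean percentile of their summed signal among all peaks of each list, although its label names maximum signal. Circles lie inside the member, triangles at one of its ends and open squares in its flanks; the highest points, at 99.7 in ELF1 and 99.2 in ETV6, are both inside the gene.

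The strongest SATB1 regions of the members lay inside genes. They were ranked by the mean percentile of summed signal in the 2 lists, which grows with peak width as well as height. The highest was in ELF1, an activator in T and B cells, at chr13:41003554-41009651 (percentile 99.7), 71.6 kb from the lower end of the gene. Next came ETV6 at chr12:11794789-11808953 (99.2), a stretch of 14165 bp, and ETV6 at chr12:11785130-11790067 (99.1). The fourth was in ERG at chr21:38475330-38479695 (98.7), 108.1 kb from the lower end, and the fifth in ETS1 at chr11:128473729-128477767 (97.0), 15.0 kb from its lower end. Thus ERG, with no peak at its annotated ends, held a SATB1 region among the strongest of these windows, although its other 3 regions had percentiles between 35.1 and 62.1.

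SATB1 regions of the members coincided with H3K27ac in 59 of 62 cases (95.2%, 95% Wilson interval 86.7 to 98.3), against 75.3% of all SATB1 regions (74.6 to 76.0), where H3K27ac means called in both shCtrl libraries and overlap at least 1 bp. CTCF called in at least 2 of 3 shCtrl libraries was at 51 (82.3%, 71.0 to 89.8), against 71.0% of all (70.2 to 71.8). Matrin 3 was at 53 in the longer list (85.5%, 74.7 to 92.2), against 82.9% of all, and at 3 (4.84%) in the shorter one, against 11.2% of all. All 3 of H3K27ac, CTCF and Matrin 3 were at 44 (71.0%), against 59.6% of all, and none of them at 1 (1.61%), against 9.10%. The exception with none was in the lower flank of ERG (chr21:38323459-38324246). The intervals cover counting error only, neighbouring regions share a gene, and H3K27ac covered 19.4% and 20.5% of the members' windows in shCtrl.

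A wide H3K27ac domain lay in the middle of ETV6. It was named when these windows were chosen, so its presence and its rank by width are a description and not a finding. The widest H3K27ac peak in the window measured 47.2 and 54.2 kb in the shSATB1 libraries and 76.4 and 67.3 kb in the shCtrl libraries. It ranked 6 and 2 by width in the shSATB1 lists and 2 and 3 in the shCtrl lists. Both shSATB1 values were below both shCtrl values, at 50.7 ± 4.98 kb and 71.9 ± 6.44 kb (SD, n = 2 each), a difference of -21.2 kb (shSATB1 minus shCtrl). With 2 libraries against 2, a two-sided exact permutation test cannot go below p = 0.333, so no H3K27ac comparison here can pass 0.05. Part of the difference was a matter of splitting: with peaks under 2 kb apart joined, the widths were 61.7 and 58.8 kb in shSATB1 and 76.4 and 69.8 kb in shCtrl, and the difference was -12.8 kb.

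With peaks joined in this way, the ETV6 domain began 108.4 and 111.2 kb above the lower end of the gene in shSATB1 and 99.66 and 99.67 kb above it in shCtrl. It stopped at 170.06 and 170.05 kb in shSATB1 and at 176.1 and 169.4 kb in shCtrl, so the arms were apart at the lower edge and overlapped at the upper edge. The footprint of a member is here the stretch from the lowest start to the highest end of its widest peaks in the 4 H3K27ac libraries, so high H3K27ac cover of it is built in. At ETV6 it is 76.4 kb long (chr12:11749338-11825769) and coincides with the widest peak of shCtrl replicate 1, whose cover is 100% by construction. H3K27ac peaks of any width covered 84.1% and 73.7% of it in shSATB1, against 96.2% in the other shCtrl library. SATB1 regions were denser inside the footprint, with 9 of the 21 (11.8 per 100 kb) against 4.46 per 100 kb in the rest of the window. SATB1 peaks covered 46.0% and 51.2% of it and Matrin 3 32.4% in the longer list. CTCF peaks covered 8.12%, 14.6% and 16.2% of it in shSATB1, against 64.2%, 58.2% and 58.8% in shCtrl.

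**Figure D2:**
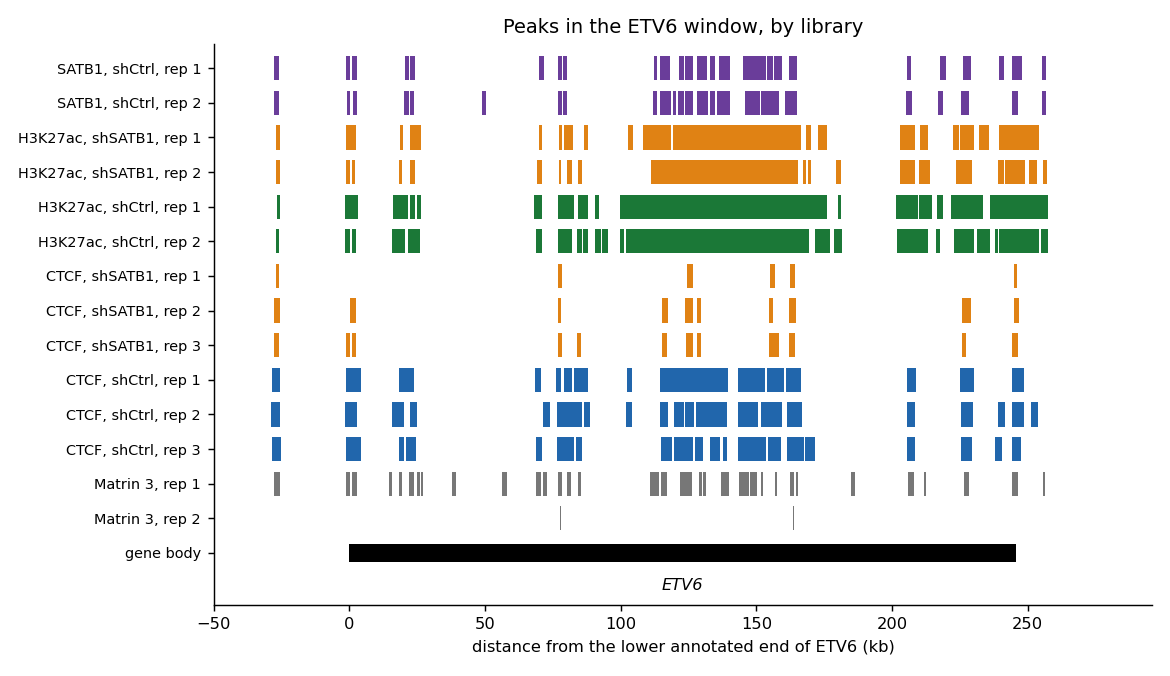
Peaks in the ETV6 window, 1 row per library, by distance from the lower annotated end of the gene (x axis, kb); bars are peaks and the black bar is the gene body. The H3K27ac domain runs between about 100 and 176 kb in shCtrl and is shorter in both shSATB1 libraries, and CTCF peaks cover less of it in all 3 shSATB1 libraries.

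At the other members the widest peaks of the arms overlapped at some and not at others. In ETS1 the widest H3K27ac peak measured 27.1 and 24.5 kb in shSATB1 and 45.6 and 40.0 kb in shCtrl, with no overlap between the arms. Yet H3K27ac covered 87.5% and 86.6% of the 45.6 kb footprint (chr11:128462608-128508238) in shSATB1, against 87.7% in shCtrl replicate 2 (the footprint coincides with the peak of replicate 1), so that the same stretch was split into 3 and 2 peaks in shSATB1 instead of 1 and 1. In FLI1 the widest peak was 27.3 and 28.2 kb in shSATB1 and 27.5 and 27.4 kb in shCtrl, and in ELF1 31.0 and 21.4 kb in shSATB1 and 29.9 and 20.3 kb in shCtrl; the arms overlapped at both genes. GABPA, the DNA-binding subunit of the GABP complex that serves many housekeeping promoters, had its widest peak in its flank, 81 kb above its lower end, with 5.52 and 3.84 kb in shSATB1 and 8.34 and 8.27 kb in shCtrl.

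At ERG (6.96 and 6.35 kb in shSATB1; 7.10 and 7.33 kb in shCtrl) and ETS2 (4.63 and 5.23 kb in shSATB1; 5.91 and 5.81 kb in shCtrl) the widest H3K27ac peak was narrower in both shSATB1 libraries by small amounts. ELF2 overlapped between the arms (2.50 and 3.00 kb in shSATB1; 2.55 and 3.41 kb in shCtrl). In all, the widest peak was narrower in both shSATB1 libraries at 5 of 8 members, where 42.3% of the 14608 gene windows with H3K27ac met the same rule. Among the 153 windows whose widest peak averaged over 20 kb in shCtrl, 62.7% met it, and so did 2 of the 4 members in that class, ETV6 and ETS1 but not FLI1 and ELF1. Whether ETV6 and FLI1 differ in their change was not tested.

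**Figure D3:**
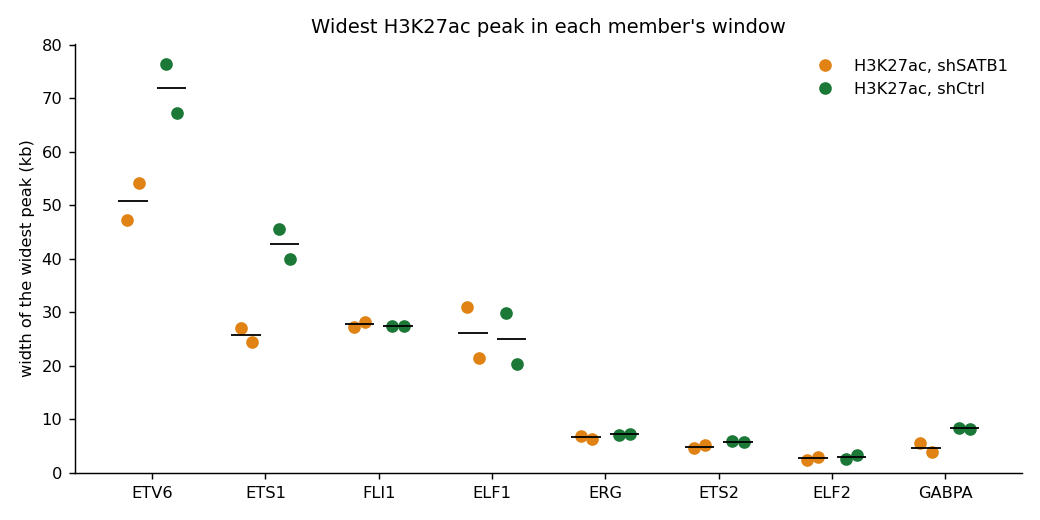
Width of the widest H3K27ac peak (y axis, kb) in each member's window (x axis); points are libraries, shSATB1 left and shCtrl right of each pair, and lines are means. The 2 shSATB1 points lie well below the shCtrl points at ETV6 and ETS1 and among them at FLI1 and ELF1.

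SATB1 regions gathered in these domains at FLI1, ETS1 and ELF1 too. The 28.2 kb FLI1 footprint (chr11:128712201-128740417) held 7 of the 10 regions of that window, 24.8 per 100 kb against 1.501 outside it. The ETS1 footprint held 6 of 10 (13.1 per 100 kb against 2.18), and the 31.4 kb ELF1 footprint (chr13:40990668-41022076) 5 of 9 (15.9 against 2.02). The contrast was not particular to wide domains. The shorter footprints of the other members held 1 region each. Their densities were 29.3 per 100 kb against 0.920 at ELF2, 14.3 against 1.77 at ETS2, 13.6 against 0.775 at ERG and 11.8 against 0.775 at GABPA. CTCF peaks covered 10.3%, 26.1% and 52.9% of the FLI1 footprint in shSATB1, against 74.6%, 90.5% and 85.9% in shCtrl. They covered 3.83%, 15.7% and 18.0% of the ETS1 footprint in shSATB1, against 54.9%, 54.2% and 57.6% in shCtrl. In the ELF1 footprint they covered 0%, 4.66% and 18.9% in shSATB1, against 38.1%, 41.1% and 30.3% in shCtrl. At each of these 3 genes every shSATB1 library was below every shCtrl library, a rule that 93.9% of whole gene windows with CTCF also met.

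Over whole windows, H3K27ac covered less at some members and as much at others. ETV6 had 116.2 and 100.6 kb under H3K27ac peaks in shSATB1 and 154.8 and 151.3 kb in shCtrl, 29.2% lower, with no overlap between the arms (exact permutation p = 0.333, the smallest possible). ERG had 10.9 and 12.0 kb in shSATB1 and 19.98 and 15.8 kb in shCtrl, 36.0% lower, also with no overlap. ETS1 had 79.2 and 76.0 kb in shSATB1 and 92.9 and 81.0 kb in shCtrl, 10.8% lower; its mean difference of -9.40 kb was -3.45 kb without shCtrl replicate 1 and -15.3 kb without shCtrl replicate 2. FLI1, by contrast, had 40.4 and 35.7 kb in shSATB1 and 38.5 and 39.6 kb in shCtrl, and the arms overlapped.

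ELF1 had 55.7 and 47.4 kb in shSATB1 and 54.6 and 54.1 kb in shCtrl, and ETS2, a close relative of ETS1, 11.7 and 13.8 kb in shSATB1 and 12.6 and 11.2 kb in shCtrl; both overlapped between the arms. ELF2 (5.62 and 6.13 kb in shSATB1; 6.85 and 6.96 kb in shCtrl) and GABPA (8.73 and 7.80 kb in shSATB1; 9.34 and 9.58 kb in shCtrl) were lower in both shSATB1 libraries, by 15.0% and 12.6%. The GABPA difference of -1.20 kb was -0.729 kb without shSATB1 replicate 2, and with the stronger 50% of each list the ERG difference of -6.44 kb was -1.90 kb and the ELF2 difference of -1.04 kb was -0.288 kb. Thus 5 of 8 members were lower without overlap, where 45.5% of gene windows with H3K27ac were (44.4% at equal list length, with 5 of 8 members). The median ratio of shSATB1 to shCtrl over the members was 0.883, against 0.842 over all windows with H3K27ac in both arms. All windows together had 328.5 and 299.5 kb in shSATB1 and 389.6 and 369.7 kb in shCtrl, 17.3% lower, and the whole genome was 17.2% lower. In number, ERG had 2 and 3 H3K27ac peaks in shSATB1 and 6 and 4 in shCtrl, lower without overlap as in 9.34% of windows, and GABPA had 3 and 3 in shSATB1 and 2 and 2 in shCtrl, higher as in 5.45% of windows. The other 6 members overlapped in number. GABPA was lower in covered length only with the flanks included: within its body the mean difference was 0.238 kb in the other direction.

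**Figure D4:**
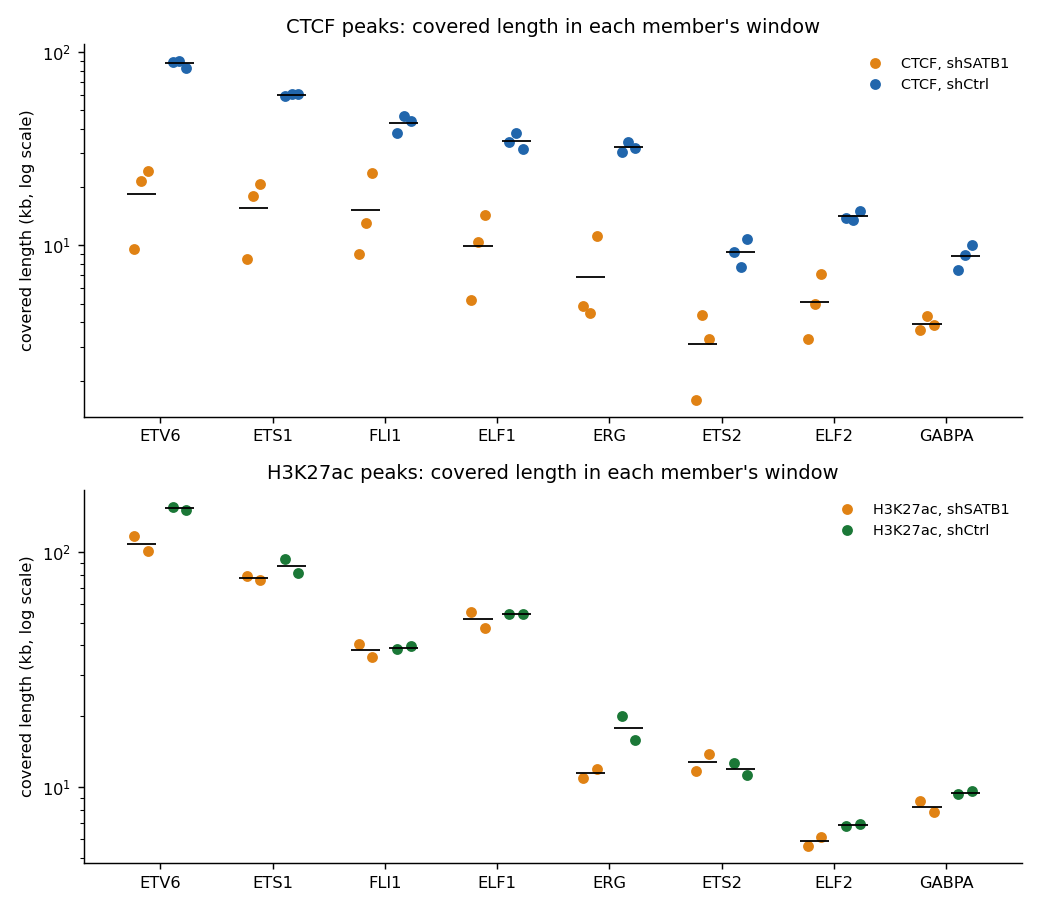
Length covered by CTCF (top) and H3K27ac (bottom) peaks in each member's window, in kb on a log scale; points are libraries, shSATB1 left and shCtrl right of each pair, and lines are means. Every CTCF shSATB1 point lies below every shCtrl point of the same member, while the H3K27ac points overlap at FLI1, ELF1 and ETS2.

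CTCF covered less of every member window in shSATB1. ETV6 had 9.63, 21.5 and 24.1 kb in shSATB1 and 89.0, 89.7 and 82.4 kb in shCtrl, or 18.4 ± 7.74 kb and 87.0 ± 4.06 kb (SD, n = 3 each), 78.8% lower. ETS1 had 8.46, 17.9 and 20.7 kb in shSATB1 and 59.2, 60.5 and 60.7 kb in shCtrl, 74.0% lower. ERG had 4.85, 4.48 and 11.2 kb in shSATB1 and 30.4, 34.0 and 31.8 kb in shCtrl, 78.6% lower. At these 3 genes the highest shSATB1 library stood far below the lowest shCtrl library, and the exact two-sided permutation p was 0.1 for each, the smallest that 3 libraries against 3 allow.

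FLI1 (9.03, 13.01 and 23.6 kb in shSATB1; 38.0, 46.7 and 44.0 kb in shCtrl) and ELF1 (5.21, 10.4 and 14.3 kb in shSATB1; 34.2, 37.9 and 31.6 kb in shCtrl) were 64.5% and 71.2% lower. ELF2, a broadly expressed relative of ELF1, had 3.28, 4.96 and 7.09 kb in shSATB1 and 13.9, 13.6 and 15.0 kb in shCtrl, and ETS2 had 1.59, 4.37 and 3.27 kb in shSATB1 and 9.26, 7.69 and 10.8 kb in shCtrl. GABPA was least lowered, by 55.1%, with 3.67, 4.30 and 3.87 kb in shSATB1 and 7.42, 8.93 and 9.99 kb in shCtrl. At equal list length the differences were smaller at all 8 members: -48.0 kb at ETV6 (against -68.6 kb with the deposited lists), -4.47 kb at ELF2 (-9.06 kb), -2.23 kb at ETS2 (-6.16 kb) and -1.21 kb at GABPA (-4.83 kb). Lower without overlap in 8 of 8 members is close to the background, since 93.9% of 17148 gene windows with CTCF met the same rule; at equal list length it was 7 of 8 members and 74% of windows. The member ratios ran from 0.212 (ETV6) to 0.449 (GABPA) with a median of 0.311, against a median of 0.397 over all windows with CTCF in both arms.

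Both the number and the width of CTCF peaks were lower in the deposited lists. The windows together held 28, 39 and 50 CTCF peaks in shSATB1 and 68, 72 and 69 in shCtrl, 44.0% fewer, with 44.3% fewer in the genome. Covered length over all windows was 45.7, 81.0 and 108.2 kb in shSATB1 and 281.4, 299.1 and 285.8 kb in shCtrl, 72.9% lower, against 65.4% lower in the genome. Per peak this was 1.63, 2.08 and 2.16 kb in shSATB1 and 4.14, 4.15 and 4.14 kb in shCtrl. Peak number was lower without overlap at 7 of 8 members (50.3% of gene windows), all but FLI1, which had 6, 6 and 10 peaks in shSATB1 and 10, 9 and 9 in shCtrl. The shSATB1 lists are shorter over the whole genome. With all 6 lists held to the same length, the difference in peak number over the windows was -2.67 in place of -30.7, and that in covered length -135.6 kb in place of -210.5 kb. The part of sequencing depth, which is unknown, was not tested.

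Merging CTCF peaks of both arms gave 69 regions in the windows, of which 12 were lost (17.4%, against 22.7% of 34146 in the genome), 0 were gained (0.00879% in the genome) and 23 were called in all 6 libraries (33.3%, against 35.7%). The lost region with the highest shCtrl signal lay in ETV6 at chr12:11665355-11674445, 15.7 kb inside its lower end. It was followed by ERG chr21:38384807-38389604, the lower flank of ELF2 at chr4:139029689-139032471, ETV6 chr12:11855097-11858549 and the upper flank of FLI1 at chr11:128858017-128863435. Their mean percentiles of summed signal among the shCtrl peaks were 44.4, 42.2, 40.5, 39.9 and 39.7, so the lost regions were of middling or low strength.

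None of the 12 lost CTCF regions lay at an outer annotated end of a member, against 4 of the 23 retained ones (17.4%). Over the genome, 24.5% of lost and 56.9% of retained regions lay at a gene end. Promoters away from these ends are not counted. The lost ELF1 region chr13:40982035-40987294 spanned the annotated promoters chr13:40982233-40982532 and chr13:40982850-40983149 inside the gene. Each lay under a CTCF peak in 0 of 3 shSATB1 and 1 of 3 shCtrl libraries. SATB1 regions overlapped 6 of the 12 lost (50%) and 18 of the 23 retained (78.3%), against 16.4% of lost and 40.4% of retained regions in the genome. H3K27ac overlapped 7 of the 12 lost (58.3%) and 19 of the 23 retained (82.6%), against 30.0% and 52.9% in the genome, so the lower shares at lost regions were found genome-wide too. Retained regions with high shCtrl signal were the upper end of ELF1 (chr13:41052311-41062522, percentile 96.8) and a site between ETS1 and FLI1 (chr11:128624030-128635609, 94.7). With the lists of both arms held to the 14695 strongest peaks, 0 of 40 regions were lost and 0 gained, against 3.41% and 1.14% of 17855 in the genome. That setting cannot judge the 12 losses, since 10 of them had no peak left in any shCtrl list and the other 2 had one in only 1 of them. With the stronger 50% of each list 9 regions were lost. That setting leaves the shSATB1 lists shorter than the shCtrl lists, so it cannot judge the losses either.

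H3K27ac merged into 54 regions in the windows, of which 3 were lost (5.56%, against 5.95% of 20526), 1 was gained (1.85%, against 2.62%) and 35 were called in all 4 libraries (64.8%, against 59.7%). The lost regions were ETV6 chr12:11865710-11868491, which overlapped a SATB1 region, ERG chr21:38379653-38381071 and ETV6 chr12:11740162-11742457. The gained region was in ELF1 at chr13:41054227-41056745, 122.3 kb above its lower end, with CTCF in shCtrl and no SATB1. At equal list length 4 of 51 regions were lost (5.68% of all) and 2 gained (3.4% of all). The 4 regions named had weak signal, at mean percentiles of 26.6, 10.9 and 8.87 for the lost and 17.8 for the gained. Without shSATB1 replicate 1 or 2 there were 8 or 5 lost, and without shCtrl replicate 1 or 2 there were 6 lost in either case. The gained were 3 without shCtrl replicate 1 and 2 without shSATB1 replicate 2. With fewer libraries the rule is easier to meet, so a rise in these counts is built in.

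ETS1 and FLI1 are neighbours on chromosome 11, with 97.6 kb between their annotated bodies and windows that overlap by 2427 bp. The interval held 3 marked sites. The site 20.1 kb above ETS1 (chr11:128607649-128615637) carried a peak in all 14 lists, including the short Matrin 3 list, and is the only place in this interval with Matrin 3 in both lists. H3K27ac covered 5.24 and 7.14 kb there in shSATB1 and 7.46 and 6.20 kb in shCtrl, and CTCF 1.06, 2.28 and 2.09 kb in shSATB1 and 1.80, 1.69 and 2.29 kb in shCtrl; both overlapped between the arms.

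The site 36.4 kb above ETS1 (chr11:128623944-128635609) carried CTCF in all 6 libraries, with 3.21, 5.64 and 5.54 kb covered in shSATB1 and 6.13, 7.53 and 11.6 kb in shCtrl. It carried H3K27ac in all 4 libraries (5.87 and 4.85 kb in shSATB1; 6.92 and 6.24 kb in shCtrl) and no SATB1 or Matrin 3 peak. Both marks were lower in every shSATB1 library, as in 93.9% of whole gene windows with CTCF and 45.5% of those with H3K27ac. The site 5.0 kb below FLI1 (chr11:128677346-128680151) carried SATB1 in both lists and no CTCF, with H3K27ac in 1 of 2 shSATB1 and 2 of 2 shCtrl libraries. Over the whole interval H3K27ac covered 12.5 and 12.0 kb in shSATB1 and 15.9 and 15.2 kb in shCtrl, and CTCF 4.27, 7.92 and 7.62 kb in shSATB1 and 7.93, 9.22 and 13.9 kb in shCtrl.

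**Figure D5:**
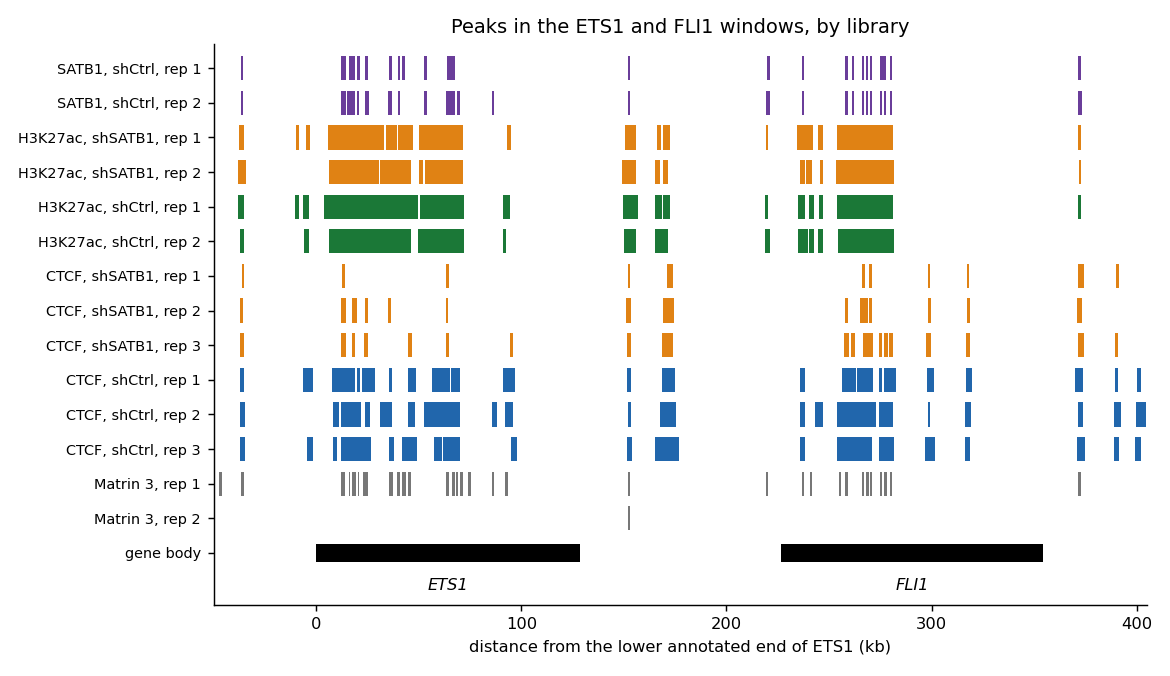
Peaks in the ETS1 and FLI1 windows, 1 row per library, by distance from the lower annotated end of ETS1 (x axis, kb); bars are peaks and black bars are gene bodies. H3K27ac fills much of the lower part of both genes in both arms, SATB1 peaks of shCtrl cells lie in the same stretches, CTCF peaks are narrower in shSATB1, and the site in all 14 lists stands at about 150 kb.

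Compared with the other 20 ETS genes, the median member window held more CTCF, H3K27ac and SATB1 in shCtrl. Windows differ in length with their genes, and these values are not scaled by it. Median covered length was 8.41 kb in shSATB1 and 33.3 kb in shCtrl for CTCF at the members, and 2.95 kb in shSATB1 and 8.83 kb in shCtrl at the other ETS genes. For H3K27ac it was 25.4 kb in shSATB1 and 28.5 kb in shCtrl at the members, and 1.90 kb in shSATB1 and 1.87 kb in shCtrl at the others. CTCF was lower without overlap at 18 of those 20 (2 had no peak) and at 4 of 4 partner genes, against 93.9% of gene windows with CTCF. H3K27ac was lower at 3 of the 20, with 11 overlapping and 6 without a peak, and at 1 of the 4 partners. Of all gene windows with H3K27ac, 45.5% were lower by that rule. A median of 6.5 SATB1 regions lay in a member window, against 1 in those of the other ETS genes, 8 of which had none. The members were proposed as ETS factors of T cells, so a higher level of active marks at them is a description of that choice.

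For each member, the genes most like it were those whose covered-length percentile among all gene windows differed least, on average over the 14 libraries. ETV6 was closest to SEMA4D (0.577 percentile points) and GNAQ (0.596), ETS1 to HIVEP3 (0.666) and PELI2 (0.715), and FLI1 to ELMO1 (0.867) and DYM (0.9496). ELF1 was closest to CD1B (0.900), an antigen-presenting molecule of cortical thymocytes, and RHOH (1.05), a small GTPase of the T cell receptor pathway. The weaker windows were matched less closely: ERG to RNF144A (2.88), ETS2 to DCT (3.02), ELF2 to LYSMD2 (2.76) and GABPA to F2 (4.04).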

How the data were processed

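The authors deposited 1 peak list for each of the 14 libraries. Beside its position, each peak has a summed and a highest signal (coverage) value, both whole numbers for which the authors' files record no scaling. The submitters' processing notes name SEACR, deepTools, SAMtools, Bowtie2 and Trim Galore, MACS2 except in the Matrin 3 libraries, and build GRCh38; tool versions, filters and control libraries are not given in the sources used here. A threshold of 0.007 stands in the SATB1 list names. Read depth is unknown, so signal was used only to rank peaks within a list, and percentiles were not compared between lists of different length.

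Of 273747 peaks, the 405 outside chromosomes 1 to 22 and X were not used. Peaks sharing at least 1 bp were merged across the libraries compared. Gene bodies were those of the RefSeq GRCh38.p14 table, which gives no strand; exons and introns were not told apart. A region belongs to the member it overlaps or lies nearest to. Libraries were compared by two-sided exact permutation tests, and members were counted where the arms did not overlap, beside the same share of all gene windows. Separate cultures are not stated in the labels for the replicates; the p-values therefore reflect the spread between these libraries only, which may be technical.

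The members and lists were chosen with earlier results of these data known. Named regions are the 5 highest lost, gained and SATB1 regions, the widest H3K27ac peak per member and 2 most alike genes per member; the retained CTCF regions, the sites between ETS1 and FLI1 and the CAGGAAG word were chosen after their values were seen. For ERG, ETS2, ELF2 and GABPA the closer of the 2 most alike genes is given. Other settings were equal list lengths, the stronger 50% of each list, other windows, another overlap rule, bins of 1 kb, joined peaks, a block for the replicate number, and leaving out each library. Libraries of the 2 arms with the same number were not treated as pairs, because the labels give no shared origin and the correlations of their deviations (0.0230 to 0.0398) were all under 0.1. Values were computed with scipy 1.17.1, pandas 2.3.3 and numpy 2.4.6 under Python 3.11.15 and drawn with matplotlib 3.10.9. The calling of lost and gained regions was tested on simulated lists. Positions are 1-based.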

Additional observations from a re-analysis of the deposited data

How the results depend on the processing

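Of 133 recomputed values of the main results, 1 changed sign. Many of the 133 are counts or percentages, which cannot change sign, so that share does not measure stability. Of 144 recomputed differences of single members, 8 changed sign, all for H3K27ac: 3 of 8 at FLI1, 2 at ELF1, 2 at ETS2 and 1 at GABPA. At FLI1, ELF1 and ETS2 the arms overlapped to begin with. Sizes were less stable: 24 of the 133 moved beyond a limit set for counts, shares and the ETV6 width. At equal list length the CTCF difference in peak number was -2.67 in place of -30.7 and in covered length -135.6 kb in place of -210.5 kb. Lost CTCF regions were 12 as reported, 0 at equal list length, 7 in gene bodies without flanks, 26 where peaks had to cover the larger part of a region, 105 bins of 1 kb, and 12 to 18 leaving out each library in turn. Lost H3K27ac regions were 3 as reported, 0 in the stronger 50% of each list by signal, 6 under the stricter overlap and 32 bins of 1 kb, with 5 to 8 leaving out each library; gained ones were 1 as reported, 2 at equal list length, 2 in the stronger 50%, 2 with 100 kb flanks and 4 bins of 1 kb, with 1 to 3 leaving out each library. Bins are smaller units than regions, so their counts are on another scale. Leaving out a library makes the rules for lost, gained and lower without overlap easier to meet, so higher counts there are built in. At equal list length 10 of the 12 lost CTCF regions had no shCtrl peak left. For the others the cause was not tested. The difference in H3K27ac peak number was 1 as reported and -1 in gene bodies (shSATB1 minus shCtrl), with 0.5 to 1.5 leaving out each library. Members with lower H3K27ac cover were 5 as reported, 3 in gene bodies and 5 to 7 leaving out each library; GABPA in its body alone was 0.238 kb higher in shSATB1. SATB1 regions with H3K27ac were 100% in gene bodies and 93.0% to 98.4% leaving out each library. Those with Matrin 3 were 72.6% under the stricter overlap, 72.5% in the stronger 50%, and 4.84% to 85.5% leaving out each library, the low value being the short Matrin 3 list alone. The ETV6 width difference was -12.8 kb with peaks joined and -25.7 to -16.6 kb leaving out each library.

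With the replicate number as a block, the mean differences between the arms were the same by construction: -210.5 kb and -30.7 peaks for CTCF, -65.6 kb and 1 peak for H3K27ac, and no direction changed. Each library correlated best with its own number in the other arm, a weak hint from the data and not from the labels. For H3K27ac, with 2 libraries per arm, the correlations are by construction a single value with either sign (0.0364 and -0.0364).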

Other observations

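The short Matrin 3 list had 3 peaks in the members' windows, at chr12:11726672-11728108 and chr12:11810164-11814726 in ETV6 and at chr11:128610554-128611886 above ETS1 (positions of the SATB1 regions they overlap). All 3 sites also carried SATB1 in both lists, H3K27ac in both shCtrl libraries and a CTCF region called in all 6 CTCF libraries. They were chosen after their values were seen.

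The only lost CTCF region of the GABPA window was in its upper flank (chr21:25817713-25819923), inside the flank's H3K27ac peak and over a SATB1 region. Of the 8.48 kb spanned by that H3K27ac peak, CTCF peaks covered 0, 0 and 0 kb in shSATB1 and 1.15, 1.68 and 5.91 kb in shCtrl, and H3K27ac covered 6.94 and 5.98 kb in shSATB1 and 8.34 and 8.27 kb in shCtrl. The part of library depth in this was not tested.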
